A study of Homo sapiens with 12 samples.

Results

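Human SNUhES3 embryonic stem cells were compared with embryoid bodies grown from them for 2 weeks, which is the full span of differentiation in the series. The members of the comparison were the 4 arrays labelled 2-week embryoid body and the 4 labelled undifferentiated ES cell, 8 of 12 arrays in all. The genes were every named gene with a probe detected at p under 0.01 on at least 4 of the 12 arrays, which left 10562 of the 18665 named genes on the array. Embryoid bodies (EBs) are floating spheres of cells that form once stem cell colonies are detached from their dish.

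The 2-week EBs had been incubated for 2 weeks in stem cell medium without basic fibroblast growth factor (bFGF). The ES cells had grown on growth-arrested STO cells, a mouse fibroblast line used as a feeder layer, in medium with 20% knockout serum replacement and 4 ng/ml bFGF. The other 4 arrays held EBs of 1 week, made in the same way, and their values are used here for the shared estimate of spread and are set beside the 2-week values. All samples came from a single stem cell line, carried no genetic change named in the labels, and were measured as total RNA on Illumina bead arrays.

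Stem cells hold their state through a small circuit of transcription factors, with POU5F1, NANOG and SOX2 at its core, and through signalling by FGF and its ERK kinase cascade. Immediate early genes such as FOS and EGR1 are copied within minutes of a growth factor or stress signal, without new protein, and their messages are short-lived. Small nucleolar RNAs (snoRNAs) guide chemical marks on ribosomal RNA and are mostly cut out of the introns of genes for ribosomal and nucleolar proteins. Clustered histone genes supply the histones for new DNA and normally end in a stem-loop in place of a poly(A) tail.

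The mean signal per array lay between 718 and 1009 units in 2-week EBs, against 817 and 1006 units in ES cells, and between 14045 and 15905 probes were detected per 2-week EB array, against 14388 to 14780 per ES array. The 2-week EB arrays correlated with the ES arrays at 0.887 to 0.901 across all genes tested. Within the ES cells, array 1 stood with array 2 and array 3 with array 4 (r of 0.997 and 0.998), while the other combinations gave 0.987. In the 2-week EBs the same combinations gave 0.992 to 0.998, and the others 0.990 to 0.995. There, array 1 correlated at 0.992 with array 2, but at 0.995 with array 3 and 0.994 with array 4. EB array 2 had the lowest mean signal, 718 units, and the fewest detected probes, 14045. The labels do not state if a group's 4 arrays stem from independent cultures. Each p-value below therefore measures the spread between these arrays, which may be technical. Because of the structure seen in the ES cells, counts from arrays 1 and 2 alone and from arrays 3 and 4 alone are given beside the main ones.

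Of the 10562 genes, 636 (6.02%) were called lower and 873 (8.27%) were called higher in 2-week EBs. A call needed an adjusted p under 0.05 from limma, with Benjamini-Hochberg adjustment over all 10562 genes, and a change of at least 2-fold. Arrays 1 and 2 alone gave 616 lower and 841 higher calls, and arrays 3 and 4 alone gave 798 and 960. Without background correction the counts were 343 lower and 636 higher. The 4 arrays of each group did not overlap at any called gene, and across all genes they did not overlap at 28.1% in the lower direction and at 27.5% in the higher direction. Without the size threshold, 31.8% of all genes were lower and 30.7% higher at an adjusted p under 0.05. The median difference over all genes was -0.02 on the log2 scale.

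Falls were smaller than rises. Among genes called lower, the median difference was -1.33, with quartiles of -1.66 and -1.13, against a median of 1.79 among genes called higher. Falls of 4-fold or more numbered 81 and rises of that size 382. At 16-fold or more there were 2 falls, in NPTX1 and EGR1, and 75 rises. Among genes detected in both groups these counts were 44 falls and 114 rises at 4-fold, and 2 falls and 11 rises at 16-fold. Of the 636 genes called lower, 491 were detected in both groups and 145 on none of the 2-week EB arrays. Of the 873 called higher, 442 were detected in both groups. For a gene detected in only 1 group, the fold is given as a bound ("at least"), set against the lowest signal that counted as detected on each array, and its fitted log2 difference is no bound. Of the genes below given with a fitted fold, TMEM107, H2BC8, DNMT3A and ST14 were detected on 3 of the 4 EB arrays and NDRG1 on 3 of the 4 ES arrays, and lower numbers are given beside the gene. In these bulk samples fewer cells of a type and less RNA per cell cannot be told apart. The genes called lower had a median difference of -0.95 in 1-week EBs, a comparison that shares the same ES arrays.

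**Figure D1:**
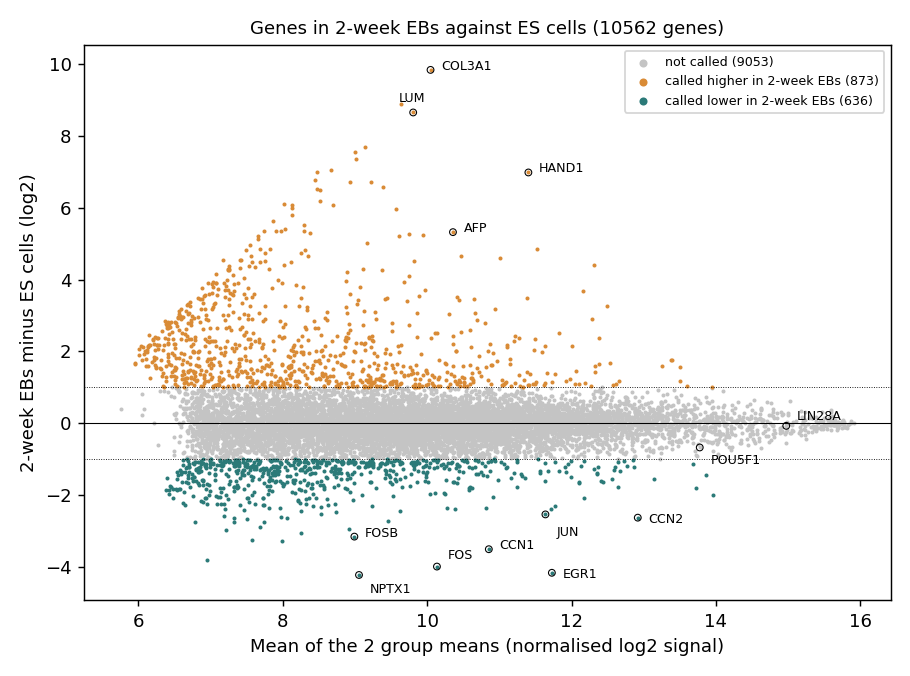
Difference between 2-week EBs and ES cells (log2, vertical axis) against the mean of the group means (normalised log2 signal, horizontal axis), with 1 point per gene and dotted lines at 2-fold. The 636 genes called lower end at -4.23, while the 873 called higher reach 9.84 at COL3A1.

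The largest fitted fall was that of NPTX1, a secreted pentraxin that binds at synapses. It had normalised log2 signals of 6.83, 6.84, 7.12 and 6.99 in 2-week EBs, against 11.47, 11.09, 11.11 and 11.01 in ES cells. All 4 EB arrays lay far below all 4 ES arrays, and 2 of the 4 EB arrays still detected the probe, so its EB signal lay near background. The difference was -4.23 ± 0.10 (SE, n = 4 arrays a group; limma adjusted p = 3.97e-13), an 18.7-fold fall in the fit, and the 1-week difference was -4.06.

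EGR1, a zinc finger transcription factor and immediate early gene, came next. It had 9.65, 9.60, 9.67 and 9.66 in 2-week EBs, against 13.74, 13.87, 13.79 and 13.84 in ES cells. The groups were tight and far apart, and the difference of -4.16 ± 0.06 (SE; limma adjusted p = 1.86e-15) was a 17.9-fold fall, against a 1-week difference of -1.75.

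The 30 largest falls, taken among genes detected on all 4 ES arrays, ran from -4.23 to -2.38. Of these, 16 were measured in both groups and 14 give a bound only. They held 8 immediate early genes, 7 small nucleolar or spliceosomal RNAs and 1 histone gene, H4C2. CH25H, which makes 25-hydroxycholesterol, had 5.02 to 5.18 in 2-week EBs without being detected, against 8.56 to 9.15 in ES cells, and was at least 3.80-fold lower. KLF9, a Krüppel-like transcription factor, was 7.63-fold lower and was detected on all 8 arrays. SCNN1G, the gamma subunit of the epithelial sodium channel, was 8.24-fold lower by its brighter probe, which 2 of the 4 EB arrays detected, and its other probe gave -2.87 on the log2 scale.

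Further falls among these 30 fell in genes of unlike roles. CCNA1, a cyclin of the germ line, was 6.06-fold lower and was detected on 1 of the 4 EB arrays. NUAK2, a kinase related to AMPK, was 5.43-fold lower with -2.11 at its other probe. VGF, a precursor of secreted neuropeptides, was 5.22-fold lower. CTNND1, the p120 catenin that steadies cadherins, was 5.54-fold lower, with 7.83, 7.70, 7.19 and 7.26 in 2-week EBs, against 9.35, 9.46, 10.44 and 10.63 in ES cells. Its ES arrays 1 and 2 stood about 1 log2 unit under arrays 3 and 4, and still above every EB array. CREB5, a CREB-family transcription factor, was at least 6.47-fold lower by its brighter probe while its other probe gave 0.72, so its probes disagreed. RUNDC3B, CCDC172 and LOC107984282 were at least 3.35-fold, 3.40-fold and 2.33-fold lower. TMEM107, which encodes a protein of the ciliary transition zone, was 5.77-fold lower. SNORD118, a small nucleolar RNA, is made from the same locus as TMEM107, and which RNA the TMEM107 probe reads was not tested.

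The immediate early genes had the lowest median difference of any protein-coding list among the 55 lists examined. Of 35 on the array, 29 were tested, and 19 of them (65.5%, against 6.02% of all genes) were called lower and 1 was called higher. The median difference over the 29 was -1.51, against -0.02 over all genes, and the 1-week median was -1.23. Of the 19, 14 were measured in both groups. The other 5 were detected only in ES cells, so that their passing the detection filter rested largely on the ES cells, and their direction is partly fixed by it. Leaving out any single array left 19 called lower. The mean signal over the 29 genes was 9.33 to 9.36 on the 2-week EB arrays, against 10.84 to 11.02 on the ES arrays, so the groups lay well apart.

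Among the AP-1 subunits, which pair to bind DNA, FOS had 8.10, 8.29, 8.02 and 8.15 in 2-week EBs, against 12.29, 12.16, 12.03 and 12.04 in ES cells. The groups did not approach each other, and FOS was 15.9-fold lower (-3.99 ± 0.08, SE; limma adjusted p = 3.33e-14). FOSB had 7.33 to 7.56 in 2-week EBs, against 10.40 to 10.84 in ES cells, and was 8.92-fold lower. JUN had 10.35, 10.32, 10.48 and 10.33 in 2-week EBs, against 12.88, 12.98, 12.92 and 12.85 in ES cells, a 5.81-fold fall with limma adjusted p = 1.42e-12. JUNB was at least 3.23-fold lower and FOSL1 at least 1.28-fold lower, both detected in ES cells alone. ATF3, a stress-induced partner of JUN, was 2.35-fold lower. JUND, which is expressed more steadily than the other subunits, gave -0.49 and did not reach 2-fold.

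CCN1 and CCN2 encode secreted matricellular proteins induced by serum and by YAP. CCN1 had 9.20, 8.89, 9.18 and 9.14 in 2-week EBs, against 12.63, 12.53, 12.65 and 12.62 in ES cells, an 11.4-fold fall. CCN2 was 6.19-fold lower, with 11.56 to 11.62 in 2-week EBs, against 13.96 to 14.52 in ES cells, and its other probe gave -2.59. ANKRD1, another gene induced by YAP, was detected in neither group.

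Several of the 19 encode products that damp the response. ZFP36, which destroys AU-rich messages, was 5.18-fold lower, and DUSP1, a MAP kinase phosphatase, was 4.12-fold lower. DUSP2, another such phosphatase, was at least 2.76-fold lower and GADD45B, a stress sensor, at least 3.07-fold lower. NFKBIA, the inhibitor of NF-kappaB, was 2.52-fold lower. NAB2, a corepressor of the EGR proteins, was 3.46-fold lower (-1.79 ± 0.11, SE; limma adjusted p = 6.82e-09). NAB2 is in no list and was chosen after its values were seen.

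EGR3, a relative of EGR1, was at least 4.83-fold lower by its brighter probe, and its other probe gave -0.41. KLF6 was 3.43-fold and IER2 3.34-fold lower, IER2 with detection on 2 of the 4 EB arrays. MCL1, an inhibitor of cell death, was 2.85-fold lower by its brighter probe and gave -0.34 at the other. MYC had 10.07, 10.14, 9.95 and 9.83 in 2-week EBs, against 12.32, 12.11, 10.69 and 10.58 in ES cells. MYC was lower in all EB arrays than in any ES array, but ES arrays 1 and 2 stood more than 1 log2 unit above arrays 3 and 4. Its difference was -1.43 ± 0.32 (SE; limma adjusted p = 0.00152), and with arrays 3 and 4 alone it was -0.75, under the 2-fold threshold. Its other probe gave -1.49.

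Several immediate early genes did not pass. ZFP36L2 gave -0.80, KLF10 -0.70, PPP1R15A -0.62 and BTG1 -0.46, each with an adjusted p under 0.05 and under 2-fold. IER5 at -0.17, SRF, the serum response factor itself, at -0.15, and ZFP36L1 at 0.09 had adjusted p-values of 0.15, 0.20 and 0.50 by limma. KLF2, a shear-induced transcription factor, went the other way. It had 9.26, 9.10, 9.18 and 8.89 in 2-week EBs, against 7.90, 7.78, 7.63 and 7.49 in ES cells, and was 2.64-fold higher.

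**Figure D2:**
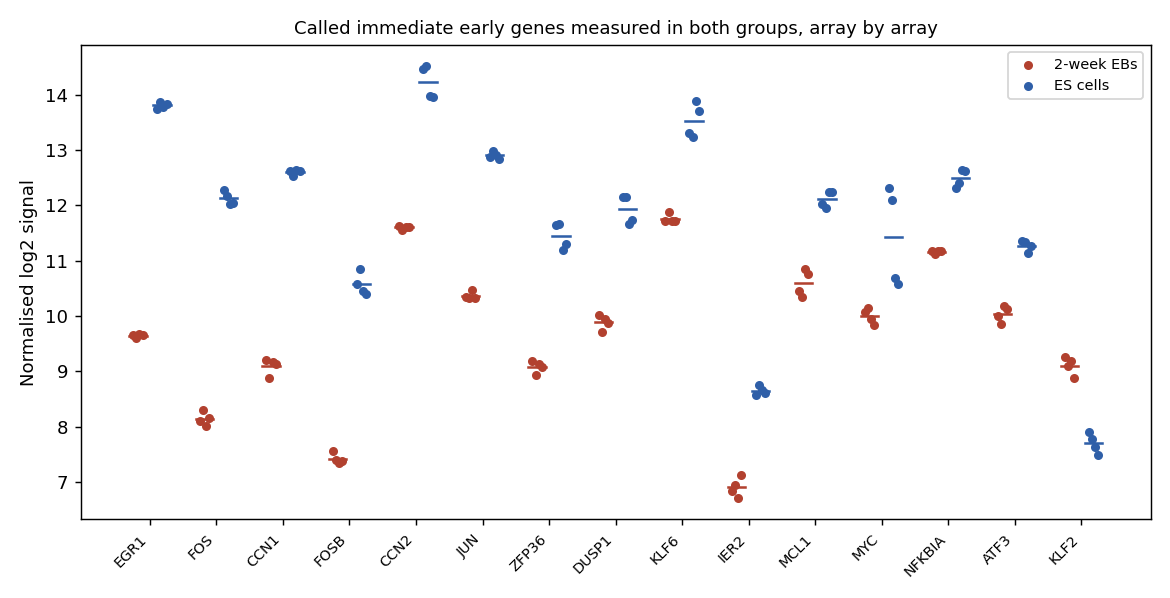
Normalised log2 signal (vertical axis) of the 15 called immediate early genes measured in both groups, with 1 point per array, 2-week EBs to the left of ES cells and a line at each group mean. The EB arrays lie below the ES arrays at 14 of the 15 genes, and MYC shows the split between ES arrays 1 and 2 and arrays 3 and 4.

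The promoter of EGR1 is shown because it carries the site through which serum response factor acts on early genes, the CArG box. The stretch is the 150 bases before the start of EGR1 on the plus strand, chr5:138465329-138465478 in GRCh38.p14, from RefSeq, with CArG boxes in capitals.
EGR1: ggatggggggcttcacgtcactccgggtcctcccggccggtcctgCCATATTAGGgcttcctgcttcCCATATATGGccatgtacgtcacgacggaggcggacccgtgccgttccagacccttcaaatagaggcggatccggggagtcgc
The boxes begin at -105 and -83 relative to the start. Searched on both strands in RefSeq windows of the 250 bases before each start, a CArG box was in 1.16% of 35116 windows. Of the 19 immediate early genes called lower, 14 had a window, and 1 of the 14, EGR1, held a box. That describes the letters of these windows only.

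The pluripotency circuit fell in part. Of 18 core pluripotency transcription factors tested, of 20 on the array, 4 (22.2%, against 6.02% of all genes) were called lower and 0 higher, with a median difference of -0.68. PRDM14, a repressor of differentiation genes in stem cells, had 9.71, 9.71, 9.79 and 9.63 in 2-week EBs, against 11.52, 11.38, 11.55 and 11.46 in ES cells. It was 3.40-fold lower, and its other probe gave -1.98. UTF1, a chromatin protein of undifferentiated cells, was 2.82-fold lower. NR5A2, a nuclear receptor that can drive POU5F1, was 2.48-fold lower with detection on 2 of the 4 EB arrays, and FOXD3, a forkhead factor, was at least 1.90-fold lower. Without background correction of the signals, 2 of the 18 were called lower, and NR5A2 and FOXD3 lost their calls. TFCP2L1, at -0.88 with every array, passed 2-fold at -1.02 without ES array 1.

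The best known factors of the circuit stayed under 2-fold, and POU5F1, NANOG, SOX2 and LIN28A were detected on all 8 arrays. POU5F1 had 13.46, 13.37, 13.45 and 13.47 in 2-week EBs, against 14.15, 14.17, 14.04 and 14.09 in ES cells. The groups did not overlap, and its difference of -0.67 ± 0.12 (SE; limma adjusted p = 0.000271) was 1.60-fold. NANOG had 9.99, 10.11, 9.96 and 10.16 in 2-week EBs, against 11.18, 10.81, 10.74 and 10.78 in ES cells, and was 1.77-fold lower (adjusted p = 5.42e-06 by limma). SOX2, which is also a neural progenitor factor, had 14.34, 14.11, 14.32 and 14.34 in 2-week EBs, against 14.48, 14.34, 14.15 and 14.13 in ES cells. Its groups overlapped, with a difference of 0.00 ± 0.09 (SE; limma adjusted p = 0.988) whose sign changed under several of the alternatives. LIN28A, an RNA-binding protein that blocks let-7, also overlapped, at -0.07 ± 0.07 (SE; limma adjusted p = 0.419).

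Of the other factors, TFCP2L1 and SOX3 gave -0.88 each, SALL4 -0.78, ZFP42 -0.69, KLF4 -0.61, SALL2 -0.32 and ZSCAN10 -0.28, all with an adjusted p under 0.05 and none at 2-fold. Over the 18 core factors, 2 were detected only in ES cells, FOXD3 and another that was not called. The fitted difference of that uncalled factor is no bound. OTX2 gave -0.02 at its brightest probe and MYCN 0.07, without passing the test, and both changed sign under some alternatives. The other 2 probes of OTX2 gave -0.07 and 2.96, so its probes disagreed. ZIC2 at 0.42 and HESX1 at 0.87, both also used in the forebrain, passed the test above 0 without reaching 2-fold.

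Among 36 genes that mark stem cells without being in the core list, 9 (25%) were called lower and 2 (5.56%) higher. The shares of all genes were 6.02% and 8.27%, and the median over the 36 was -0.51. DPPA2, a chromatin protein of early embryo and germ cells, had 6.80, 6.82, 6.76 and 6.74 in 2-week EBs, against 9.17, 9.10, 9.15 and 9.18 in ES cells. The DPPA2 groups were apart, a 5.17-fold fall in the fit. DPPA5, an RNA-binding protein of the same cells, was 5.12-fold lower. DPPA2 and DPPA5 were each detected on 1 of the 4 EB arrays, so that their EB signals lie near background. POLR3G, a subunit of RNA polymerase III used in stem cells, was 3.48-fold lower by its brighter probe and gave -0.35 at the other. IDO1, which degrades tryptophan, was 3.04-fold lower. The 2 that were higher were SFRP2, a secreted WNT modulator, and NTS, the neuropeptide neurotensin, at 1.95 and 1.62. DPPA4, LIN28B and L1TD1 gave -0.50, 0.31 and -0.34; these 3 were chosen after their values were seen.

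Small nucleolar RNAs showed the most uniform fall. Of 37 snoRNAs tested, 29 (78.4%, against 6.02% of all genes) were called lower, 0 were called higher, and all 37 lay below 0. The median difference was -1.62 in 2-week EBs and -1.34 in 1-week EBs. Of the 29, 15 were measured in both groups and 14 were detected only in ES cells. Without any single array the list held 28 to 30 called lower, and with the authors' own deposited normalised values 20. The mean signal over the 37 was 7.08, 7.05, 7.18 and 7.14 in 2-week EBs, against 8.60, 8.63, 8.80 and 8.79 in ES cells, with no overlap. For the 14 detected only in ES cells the filter again fixed part of the direction. The RNeasy columns used for extraction recover very short RNAs poorly. Whether recovery of the small RNAs here and below differed between the groups was not tested. Which form of these RNAs the probes read, mature or precursor, was not tested either.

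Split by class after the values were seen, 26 of 30 box C/D snoRNAs, which guide methylation, were called lower, with a median of -1.75. That stands against 6.02% of all genes, and 13 of the 26 were measured in both groups. Of 7 box H/ACA snoRNAs, which guide pseudouridylation, 3 were called lower, with a median of -0.93, and 2 of the 3 were measured in both groups. In both classes the rest of the calls were detected only in ES cells, so that the filter fixed part of their direction. SNORD109B, from the imprinted snoRNA region that also holds SNORD108 and SNORD64, had 8.05, 8.43, 8.02 and 7.87 in 2-week EBs, against 10.76, 10.68, 10.95 and 10.86 in ES cells. It was detected on all 8 arrays and was 6.59-fold lower. SNORD108 was 3.80-fold lower. SNORD35A, SNORD46, SNORD21, SNORD43 and SNORD15B were detected on no EB array and were at least 3.43-fold, 4.62-fold, 4.54-fold, 3.27-fold and 2.92-fold lower.

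The genes whose transcripts contain the snoRNAs were not called with them. For 23 of the 37 snoRNAs the containing gene was also tested, giving 15 different containing genes, of which 0 were called in either direction. The 15 had a median difference of -0.01 and ran from -0.67 to 0.42. Of the 23 snoRNAs, 18 were called lower, against 6.02% of all genes, and 22 lay below their containing gene. Several of the 23, SNORD35A and SNORD21 among them, were detected only in ES cells, so that the filter fixed part of their direction. SNORD14C lies in HSPA8, a heat shock chaperone of the cytosol, and was 3.27-fold lower beside 0.42 for HSPA8. SNORD56 was 4.75-fold lower and lies in NOP56, a core protein of box C/D particles, which gave -0.67. SNORD35A lies in RPL13A, a ribosomal protein gene with -0.18, and SNORD21 in RPL5, with 0.15. SNORA32, at -0.43, lies in TAF1D, at -0.62, and was the exception. At an unadjusted p under 0.05, 3 of the 15 containing genes were lower and 0 higher, against 33.6% and 32.5% of all genes. Each probe was compared with itself between groups only.

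**Figure D3:**
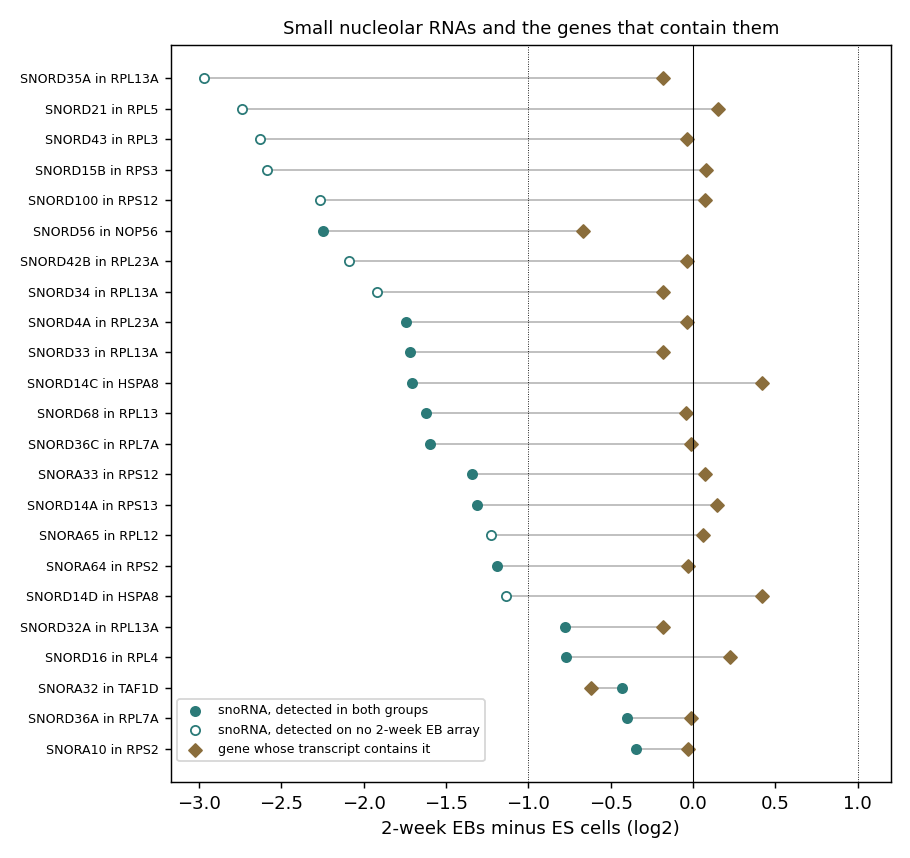
Difference between 2-week EBs and ES cells (log2, horizontal axis) for 23 snoRNAs (circles, open where no 2-week EB array detected the snoRNA) and for the gene whose transcript contains each (diamonds), with dotted lines at 2-fold. The containing genes lie between -0.67 and 0.42, and 18 of the snoRNAs lie left of the line at -1.

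Of 4 small nuclear RNAs tested 3 were called lower. RNU11 and RNU6ATAC, RNAs of the minor spliceosome, were lower by at least 5.46-fold and by 3.92-fold. RPPH1, the RNA of RNase P, was 3.86-fold lower, with 9.16, 9.17, 9.08 and 9.11 in 2-week EBs, against 10.99, 11.12, 11.14 and 11.07 in ES cells. RN7SK, which holds the elongation factor P-TEFb inactive, was 2.87-fold lower and gave -2.36 at its other probe. SNAR-A1, another small noncoding RNA, gave -0.07, and RN7SL1, the RNA of the signal recognition particle, gave -0.01. Neither passed the test or kept its sign under every alternative. TERC, the RNA template of telomerase, was at least 1.51-fold lower, and the 1-week difference was -0.15. Of 52 long noncoding RNAs tested, 2 (3.85%) were called lower and 5 (9.62%) higher, near the 6.02% and 8.27% of all genes, with a median of -0.31. Of 73 cytosolic ribosomal protein genes 0 were called lower and 1 was called higher, and of 65 genes of ribosome assembly in the nucleolus 1, WDR74, was called lower. WDR74 gave -1.10 at its brightest probe and between -0.50 and -0.28 at its other 2 probes, and -0.93 without ES array 3 or ES array 4. RNU6ATAC, RPPH1, RN7SK, SNAR-A1 and RN7SL1 are in no list and were chosen after their values were seen.

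Histone genes split by location. Of 43 tested, of 75 on the array, 22 (51.2%) were called lower and 1 higher, with a median of -1.0. The shares of all genes were 6.02% and 8.27%. All 22 were among the 35 clustered histone genes, whose median was -1.43. The 8 histone genes outside the clusters, such as H2AZ1 and H3-3A, had 0 calls by limma and a median of -0.02. At an unadjusted p under 0.05, 1 of the 8 was lower and 3 higher, against 33.6% and 32.5% of all genes. The split by location was made after the values were seen. Of the 22, 11 were measured in both groups. The other 11 were detected only in ES cells, so that the filter fixed part of their direction, and the counts, medians and means here include them. The mean signal over the 35 clustered genes was 7.66, 7.66, 7.70 and 7.73 in 2-week EBs, against 8.93, 8.94, 8.90 and 8.93 in ES cells. Without background correction 15 of the 43 were called lower.

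H2BC8, an H2B gene, had 7.31, 6.87, 7.38 and 7.52 in 2-week EBs, against 9.66, 9.59, 9.45 and 9.61 in ES cells, and was 4.96-fold lower. H4C1 was 4.27-fold lower, and H4C2 was at least 3.73-fold lower. H3C12, H2BC7 and H1-3 were at least 2.52-fold, 2.07-fold and 2.57-fold lower. H2BC12 went the other way, with 12.17, 12.60, 11.98 and 12.01 in 2-week EBs, against 11.13, 11.22, 10.92 and 11.06 in ES cells. It was 2.15-fold higher with limma adjusted p = 2.11e-06, but without 2-week EB array 2 its difference was 0.97, under 2-fold.

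Genes of histone supply and of the cell cycle were set beside these. NPAT, the coactivator of clustered histone genes, gave -1.16 ± 0.22 (SE; limma adjusted p = 0.000399), with 8.54, 8.90, 8.64 and 8.48 in 2-week EBs, against 9.16, 9.42, 10.33 and 10.27 in ES cells. With arrays 1 and 2 alone NPAT gave -0.57, and without ES array 3 or ES array 4 alone it fell under 2-fold. SLBP, which binds the stem-loop, gave 0.21 with limma adjusted p = 0.125. NPAT and SLBP were chosen after their values were seen. Of 49 DNA replication genes 1 was called lower, GINS4, a subunit of the replicative helicase, which was 2.80-fold lower, and the median was -0.19. At an unadjusted p under 0.05, 25 of the 49 were lower and 4 higher, against 33.6% and 32.5% of all genes. Of 59 mitosis genes 0 were called by limma, with a median of -0.07. At an unadjusted p under 0.05, 16 of the 59 were lower and 11 higher, beside the same shares of all genes. Of 19 genes for G1 cyclins, their kinases and inhibitors, 0 were called lower and 5 higher, against 6.02% and 8.27% of all genes. CDKN1C, a kinase inhibitor, led the rises at 2.12.

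**Figure D4:**
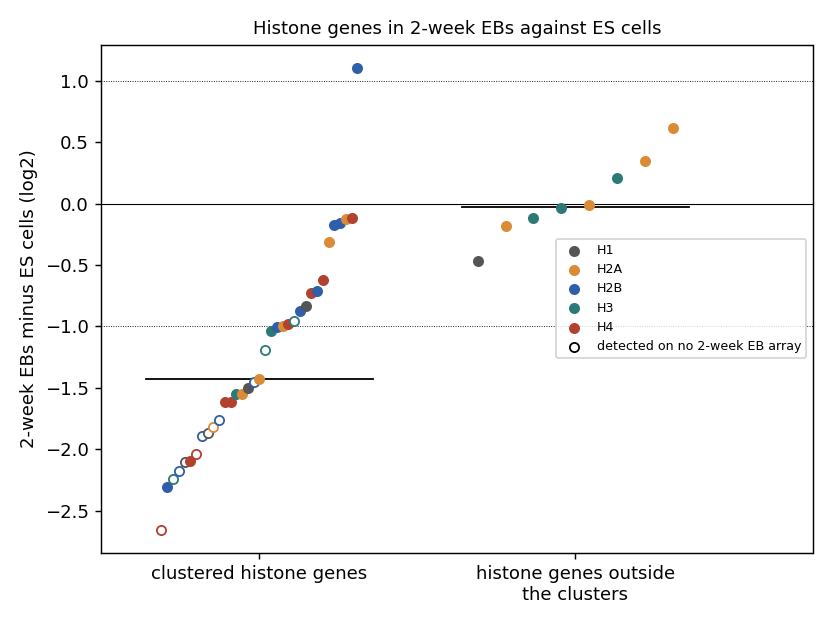
Difference between 2-week EBs and ES cells (log2, vertical axis) for 35 clustered histone genes and 8 histone genes outside the clusters, coloured by histone family and open where no 2-week EB array detected the gene, with lines at the medians. The clustered genes centre at -1.43 and the others at -0.02.

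The octamer, ATTTGCAT or its reverse complement ATGCAAAT, is a known element of H2B promoters. The 150 bases before the start are shown for H2BC8 and H2BC7, which fell, and for H2BC12, which rose, because the same element stands in all of them (RefSeq, GRCh38.p14; H2BC8 at chr6:26216689-26216838 on the minus strand, H2BC7 at chr6:26199366-26199515 on the plus strand, H2BC12 at chr6:27146856-27147005 on the minus strand; octamer in capitals).
H2BC8: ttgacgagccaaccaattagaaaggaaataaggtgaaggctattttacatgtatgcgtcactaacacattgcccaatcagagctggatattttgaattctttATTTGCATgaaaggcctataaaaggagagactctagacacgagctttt
H2BC7: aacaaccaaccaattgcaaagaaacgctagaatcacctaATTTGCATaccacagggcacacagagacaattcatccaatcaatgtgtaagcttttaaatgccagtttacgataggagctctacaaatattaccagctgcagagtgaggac
H2BC12: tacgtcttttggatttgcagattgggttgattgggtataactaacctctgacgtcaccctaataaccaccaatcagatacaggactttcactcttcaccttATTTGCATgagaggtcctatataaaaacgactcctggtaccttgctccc
Searched on both strands in windows of the 250 bases before each start, the octamer was in 1.63% of 35116 windows. It was in 9 of 11 H2B genes tested, in 5 of the 6 H2B genes called lower and in 0 of 7 H4 genes. H4C1 and H4C2 were thus among the falls with no octamer in this window.

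Growth factor and adhesion genes moved in both directions. Of 21 genes of the FGF pathway and its ERK feedback, 4 (19%) were called lower and 5 (23.8%) higher, against 6.02% and 8.27% of all genes, with a median of -0.12. FGFR1, an FGF receptor, had 8.16, 8.57, 8.46 and 8.33 in 2-week EBs, against 9.77, 9.61, 10.35 and 10.37 in ES cells, and was 3.13-fold lower. SPRY4, an inhibitor of receptor signalling, was 2.78-fold lower, PHLDA1 3.13-fold and FGFR4 2.07-fold lower. DUSP6, an ERK phosphatase, was 2.41-fold higher, and the ligands FGF8 and FGF17 were at least 1.38-fold and 1.41-fold higher. FGF2, which encodes bFGF, gave -0.83; it was chosen after its values were seen.

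Of 27 genes of simple epithelium and tight junctions, 7 (25.9%) were called lower and 5 (18.5%) higher, against 6.02% and 8.27% of all genes, with a median of -0.55. ELF3, an epithelial ETS factor, was 3.08-fold lower, ESRP1, an epithelial splicing factor, 2.51-fold, CLDN3, a claudin, 2.33-fold, and ST14, a membrane protease, 2.29-fold lower. KRT19, KRT8 and KRT18, keratins of simple epithelium, were 3.39-fold, 2.29-fold and 2.06-fold higher, and DSP, which anchors keratin at desmosomes, was 2.64-fold higher. The other 2 probes of KRT18 gave -0.71 and -0.19, against 1.04 at its brightest, which gave 0.99 without 2-week EB array 2. CDH1 and EPCAM, the adhesion molecules of stem cell colonies, gave -0.34 and -0.14 and were chosen after their values were seen. Without background correction, 2 of the 27 were called lower, and CLDN3 and ST14 lost their calls.

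Metallothioneins, small proteins that bind zinc and copper, split by gene. MT1G had 10.56, 10.43, 10.50 and 10.60 in 2-week EBs, against 12.84, 12.87, 12.91 and 12.98 in ES cells, a 5.19-fold fall, and MT1H was 5.13-fold and MT1F 2.09-fold lower. MT2A had 12.38, 12.40, 11.85 and 12.02 in 2-week EBs, against 9.98, 10.06, 9.99 and 10.13 in ES cells, a 4.35-fold rise. The members share much sequence, and cross-hybridisation between them was not tested. Of 6 tested, 3 were called lower and 1 higher, against 6.02% and 8.27% of all genes.

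Hypoxia-induced genes also divided, 4 (17.4%) lower and 3 (13%) higher of 23, against 6.02% and 8.27% of all genes. ADM, the vasodilator peptide adrenomedullin, was 4.01-fold lower, with 12.84 to 13.19 in 2-week EBs, against 14.89 to 15.02 in ES cells. BHLHE40, a clock repressor, and ANKRD37 were 2.64-fold lower each, with 1-week differences of 0.33 and 0.82. NDRG1, a stress protein, was 9.41-fold higher, and LOX, which crosslinks collagen, was 4.93-fold higher. Of 13 genes of MHC class I presentation, PSMB8, an immunoproteasome subunit, was 3.15-fold lower and TAP1, the peptide transporter, 2.93-fold lower, while B2M, the class I light chain, gave 1.0 on the log2 scale. The rise of B2M ran from 0.87 to 1.11 without any single array, was under 2-fold without EB array 3 or 4 or without ES array 3 or 4, and was 0.59 with arrays 1 and 2 alone.

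Of 26 Polycomb genes, 2 (7.69%) were called lower and 3 (11.5%) higher, against 6.02% and 8.27% of all genes. CBX7, a Polycomb subunit of stem cells, was 3.08-fold lower and PHC3 2.15-fold lower, while PHC2, SCMH1 and BMI1 were higher by 1.58, 1.11 and 1.08 on the log2 scale. PHC3 was detected on 2 of the 4 EB arrays and PHC2 on 1 of the 4 ES arrays. DNMT3A, a DNA methyltransferase, gave -1.03, and it gave -0.94 without 2-week EB array 2, -0.98 without ES array 3 and -0.92 without ES array 4. PHC3 gave -0.93 without 2-week EB array 4. DNMT3A was the only call among 12 enzymes of DNA methylation, and DNMT3B gave -0.53, chosen after its values were seen. Of 17 telomere genes, 2 (11.8%) were lower and 0 higher. TERF1, which caps telomeres, was 2.73-fold lower, and its other probe gave -1.56. Among 317 ZNF zinc finger genes, 21 (6.62%) were lower and 18 higher, close to the shares of all genes. ZNF296, the largest ZNF fall, was 3.61-fold lower, while its 1-week difference was 0.15.

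Some genes named for differentiated cells were among the falls. The list counts that follow stand beside 6.02% of all genes called lower and 8.27% called higher. TNNI3, cardiac troponin I, was 3.08-fold lower, while 10 of the 15 cardiomyocyte genes tested were higher. FLT4, a lymphatic endothelial receptor, was 2.39-fold lower, beside 8 of 14 endothelial genes higher. The neuronal genes GAP43, NEFH and CHGA were 2.41-fold, 2.40-fold and 2.09-fold lower, and with NPTX1 made 4 lower beside 11 higher of 33 neuron genes. The secreted WNT inhibitors SFRP5 and WIF1 were at least 1.49-fold and 1.21-fold lower, while 10 of 16 WNT targets and inhibitors were higher. ID1, a BMP target that blocks differentiation factors, was 2.34-fold lower, beside 12 of 21 BMP targets higher. Among the members called higher, 4 of 10 cardiomyocyte genes and 2 of 8 endothelial genes were detected in both groups. For the neuron, WNT and BMP lists it was 7 of 11, 7 of 10 and 7 of 12.

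Housekeeping lists held few calls at this threshold. None of 77 mitochondrial ribosomal protein genes, 69 nuclear-encoded respiratory chain genes or 34 aminoacyl-tRNA synthetases was called in limma's fit, with medians of -0.20, -0.06 and -0.18. At an unadjusted p under 0.05, 40, 22 and 17 of them were lower and 6, 11 and 4 higher. Of all genes, 33.6% were lower and 32.5% higher at that threshold. PSMB8 was the 1 proteasome gene called of 33.

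HAND1, which helps form the heart and the mesoderm outside the embryo, had 14.87, 14.90, 14.89 and 14.92 in 2-week EBs, against 7.79, 7.89, 7.92 and 8.05 in ES cells. That 126-fold rise was the largest among genes detected on all 8 arrays. AFP, the fetal albumin of yolk sac and liver, was 40.0-fold higher. COLEC12, a scavenger receptor, was 38.0-fold higher, IGFBP3, which binds insulin-like growth factors, 29.0-fold, and COL5A2 and COL5A1, fibrillar collagen chains, 25.1-fold and 24.3-fold. ATP7B, a copper exporter, was 17.1-fold higher, IL6ST, the shared receptor chain of the interleukin-6 family, 15.4-fold with 1.78 on the log2 scale at its other probe, SPON1, a secreted matrix protein, 13.2-fold, ACTC1, cardiac actin, 12.9-fold, SLIT2, a guidance ligand, 11.7-fold, and WLS, which carries WNT proteins to the surface, 11.5-fold. MSX1, a BMP-induced homeobox factor, was 22.7-fold and DLK1, an imprinted growth regulator, 21.1-fold higher. LHX2, a forebrain factor, was 19.1-fold higher, with a 1-week difference of 1.58 beside 4.25 at 2 weeks. Among genes that no ES array detected, COL3A1, LUM, DCN, PITX1 and SLN were higher by at least 235-fold, 132-fold, 127-fold, 59.8-fold and 52.0-fold. LUM and DCN are proteoglycans of collagen fibres, PITX1 is a hindlimb and pituitary factor, and SLN is a calcium pump regulator of atrial muscle.

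Of 34 genes of mesenchyme and matrix, 27 (79.4%, against 8.27% of all genes) were called higher, with a median of 2.36, and 10 of the 34 were not detected in ES cells. Of 19 mesendoderm genes on the array, 14 were tested and 14 called higher, 11 of them undetected in ES cells, among them EOMES and MIXL1 at least 6.29-fold and 3.0-fold higher. Genes detected only in 2-week EBs passed the filter because of their level in EBs, so that their direction is fixed in part by the filter. Of 19 proteins secreted by yolk sac and liver, 15 rose, among them the fibrinogen chain FGB by at least 48.5-fold and TTR, which carries thyroxine in blood, by at least 25-fold. HOX genes gave 8 of 13 higher, led by HOXB8 at least 12.1-fold, and neural progenitor genes 12 of 25. Of the members called higher, 2 of 15 in the yolk sac and liver list were detected in both groups. For HOX genes it was 0 of 8, and for neural progenitor genes 3 of 12.

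Markers of fibroblasts, the cell type of the feeder layer on which the ES cells had grown, were higher in 2-week EBs. Of 11 tested, 10 were called higher, against 8.27% of all genes, and 0 lower. Of the 10, 5 were detected in both groups. The other 5 were detected on no ES array, so that the filter fixed part of their direction. The mean signal over the list was 12.02 to 12.11 in 2-week EBs, against 7.31 to 7.65 in ES cells. Of those with defining roles in collagen matrix, COL3A1, LUM and DCN were undetected in ES cells, while COL1A1 and COL1A2 were detected on all 8 arrays and were 5.66-fold and 9.52-fold higher in 2-week EBs. TWIST1, the marker that was not called, gave -0.01. The share of feeder RNA in the ES arrays was not tested.

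**Figure D5:**
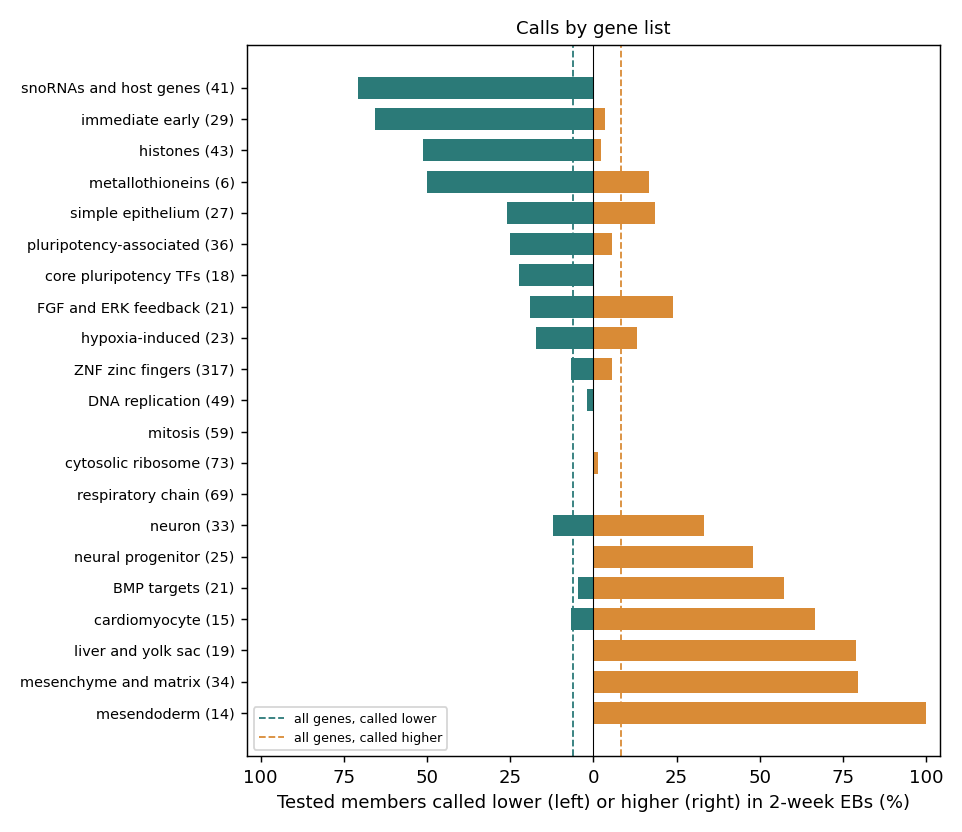
Share of each list's tested members (number in brackets) called lower (bars to the left) or higher (bars to the right) in 2-week EBs, in percent, with dashed lines at the shares of all genes, 6.02% and 8.27%. SnoRNAs, immediate early genes and histones extend to the left, and mesendoderm, mesenchyme and liver lists to the right.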

How the data were processed

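RNA was extracted with RNeasy mini columns, which recover very short RNAs poorly, and hybridised to Illumina arrays of 48803 probes, per the labels' protocols. The authors deposited, per the file headers, non-normalised intensity values with a detection p-value for each probe and array, and a table of normalised log2 values whose centring is not stated. All 4 arrays of each of the 3 groups were fitted. Intensities were background-corrected from the detection p-values and quantile-normalised with neqc (limma 3.58.1, R 4.3.3, offset 16). Probes detected at p under 0.01 on at least 4 of 12 arrays were kept (15921), of which 13586 had 1 gene symbol. Across the array 27578 probes had 1 symbol, 13 had several and 21212 had none, and a gene was read at its brightest kept probe. limma's moderated test used 9 residual and 4.31 prior degrees of freedom, 2-sided.

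Replicate numbers did not pair the arrays across groups: same-numbered deviations correlated at 0.06, -0.04, 0.04 and 0.02. Samples were grouped by their titles. The number of arrays, 4 a group, limits the precision.

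The comparison and the 55 gene lists were chosen with earlier results of these data known, so lists are described by counts and medians with no test. Genes were taken from a rule, which covers POU5F1, NANOG, SOX2 and LIN28A, the 30 largest falls, the 15 largest rises detected on all 8 arrays and 5 largest bounds, up to 5 falls and 3 rises of each list, and all tested core pluripotency factors and immediate early genes. Not every list member it covers is described. Any other gene named was chosen after its values were seen. A gene among the largest falls is not reported here. The fitting script was tested on simulated data. Alternatives changed the scaling, background correction, filter, probe choice, arrays and model.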

Additional observations from a re-analysis of the deposited data

Results flagged for a closer look

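Among 392 groups of 4 arrays examined for the genes named in the text, 22 held an array far from the other 3, where chance gives about 5%. Each number in brackets is the gap to the nearest other array as a share of the group's range.

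In 2-week EBs, array 2 was the highest for FOXD3 (0.936), KLF6 (0.945), KLF9 (0.848) and RN7SK (0.835). It was the lowest for DNMT3A (0.866), MSX1 (0.867), SCNN1G (0.846), SNORA32 (0.922), SOX2 (0.929) and MBNL2 (0.884). Array 1 was the highest for POLR3G (0.916) and SNORD43 (0.947) and the lowest for NEFH (0.920), array 4 was the highest for PIM2 (0.895), and array 3 was the lowest for TFCP2L1 (0.855) and the highest for ZFP42 (0.857). Among these, DNMT3A lost its call without array 2, at -0.94.

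In ES cells, array 1 was the highest for NANOG (0.833) and OTX2 (0.919), array 2 for RPL13A (0.948), and array 4 the lowest for JUND (0.834) and SCMH1 (0.896) and the highest for ACTC1 (0.858).

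The probes with no gene symbol in the annotation used here entered no count above. Of 2335 such probes that passed the detection filter, 233 were called lower and 117 higher in 2-week EBs by limma.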

How the results depend on the processing

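Counts called lower and higher were 550 and 956 with arrays scaled to equal medians, 343 and 636 without background correction, 448 and 701 with the deposited normalised values, and 752 and 1017 with no detection filter. Without any single array they ran from 600 to 689 lower and from 849 to 894 higher. The cause of the drop to 343 was not tested. The deposited values of 2-week EB array 2 correlated at 0.938 with its log2 signal, against 0.9976 to 0.9987 on the other arrays. With the replicate number as a block the counts were 636 and 873, and the block is not a pairing, since same-numbered arrays did not deviate together. Of 3722 values for single genes under 19 alternatives, 3605 kept direction and side of the threshold, 78 lost the call, 7 gained it and 32 changed sign. The named genes that lost their call without background correction were B2M, BMI1, CHGA, CLDN3, DNMT3A, DUSP6, FGFR4, FLT4, FOSL1, FOXD3, NEFH, NR5A2, PHC3, RELB, SCMH1, SFRP5, SNORD64, ST14, TERC and WIF1. The sign changes were in 11 genes that were not called. With arrays 1 and 2 alone LIN28A gave 0.058, MYCN -0.302, OTX2 0.053 and HSPA8 -0.095. With arrays 3 and 4 alone SOX2 gave 0.184, SRF 0.050, TWIST1 0.243, RN7SL1 0.0086 and SNAR-A1 0.0027. At equal medians MYCN gave -0.045, RPL5 -0.081, TWIST1 0.084 and ZFP36L1 -0.031. The deposited values gave OTX2 0.024, HSPA8 -0.044, RN7SL1 0.038 and SNAR-A1 0.017. The mean of a gene's probes gave OTX2 0.957 and SOX2 0.036. Leaving out 1 array gave MYCN -0.057 to 0.204, OTX2 -0.075 to 0.060, SOX2 -0.050 to 0.067, TWIST1 -0.080 to 0.098, RN7SL1 -0.059 to 0.0087 and SNAR-A1 -0.135 to 0.028. Signals near background limit the 145 falls known only as bounds.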

Other observations

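Other falls touched signalling and metabolism. NFKB2 and RELB, subunits of the noncanonical NF-kappaB pathway, were 3.87-fold and 2.47-fold lower in 2-week EBs. NFKB2 had 7.28, 7.08, 7.21 and 7.22 in 2-week EBs, against 9.11, 8.87, 9.37 and 9.24 in ES cells, and its other probe gave -1.90. The survival kinases PIM1, PIM2 and PIM3 were 3.44-fold, 2.20-fold and 2.59-fold lower. NFKB2 and RELB were each detected on 3 of the 4 EB arrays. PMAIP1, a trigger of cell death and p53 target, was 3.15-fold lower. NFKB2, RELB, PIM1, PIM2 and PIM3 were chosen after their values were seen.

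PRODH, which starts proline breakdown, was 3.04-fold lower, with 10.67 to 10.92 in 2-week EBs, against 12.21 to 12.55 in ES cells. CHAC1, which degrades glutathione, was 3.14-fold lower, beside a 1-week difference of -0.42, and was detected on 3 of the 4 EB arrays. SLC30A1, a zinc exporter, was 2.86-fold lower and was among 9 of 199 solute carriers called lower (4.52%), with 11 higher (5.53%), both under the 6.02% and 8.27% of all genes. Of 68 splicing proteins 4 (5.88%) were called lower and 2 higher, a share lower close to that of all genes, with a median of 0.02. Among them SF1, RBM39 and DDX17 were 2.67-fold, 2.34-fold and 2.08-fold lower, each with ES arrays 1 and 2 below arrays 3 and 4. With arrays 1 and 2 alone they gave -0.97, -0.74 and -0.47, all under 2-fold. DDX17 also fell under 2-fold without ES array 3, at -0.88, and without ES array 4, at -0.93. MBNL2, a splicing factor of differentiated cells, was 6.24-fold higher.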
